A study of Arabidopsis thaliana with 6 samples.

Results

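The 8 genes described here are GILT (AT4G12960), DELTA-VPE (AT3G20210), CSLA01 (AT4G16590), AT4G15750, AT1G56100, AT5G49180, AT1G66850 and AT3G28270, 8 of 13350 genes that the probe annotation names. They were selected on measured values, namely a much lower expression in the cax1cax3 double mutant of Arabidopsis thaliana than in the Columbia-0 wild type, and carry the working label of seed and silique genes. Whole plants of both genotypes, in the Columbia-0 ecotype, were profiled on Affymetrix arrays, with 3 arrays of each. CAX1 and CAX3 are vacuolar antiporters that load calcium in exchange for protons, and the labels do not name the mutant alleles. Plants grew for 10 days on MS medium with 0.5% sucrose and 3 weeks in soil, with 16 hours of light a day at 22 °C, whereas the stated age is 40 days. The mutants had begun to show necrotic lesions. The labels do not say whether flowers or siliques were present.

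The proteins act in the cell wall, the vacuole and the cell surface. Pectin leaves the Golgi with methyl groups on its galacturonan chains. Pectin methylesterases remove them in the wall, which lets calcium bridge neighbouring chains, and pectin methylesterase inhibitors block those enzymes. AT5G49180 encodes a pectin methylesterase, and AT4G15750 and AT1G56100 encode inhibitors. DELTA-VPE is a cysteine protease of the vacuolar processing enzyme family, known in Arabidopsis for cell death in the developing seed coat. GILT belongs to a family of thiol reductases, named in mammals for a lysosomal enzyme that interferon induces. CSLA01 belongs to the cellulose synthase-like A family, which makes mannan backbones. AT1G66850 encodes a lipid transfer protein, and AT3G28270 is a relative of AT14A, a membrane-associated protein.

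Each gene was measured by 1 probe set, and values are log2 expression. Over all probe sets the array medians ran from 7.03 to 7.08. The level that probes report without a plant target was read from 27 probe sets for bacterial transcripts, with a median of 4.04 and a 95th percentile of 4.70.

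GILT read 11.35, 12.19 and 9.93 on wild-type arrays 1, 2 and 3, against 4.82, 4.48 and 4.50 on the mutant arrays. The lowest wild-type array stood 5.11 log2 units above the highest mutant array, the widest gap of the 8 genes. On mutant arrays 2 and 3 GILT lay at or below the 95th percentile of the bacterial probe sets. The mean difference, mutant minus wild type, was -6.55 ± 0.52 (SE) as read, but the mutant mean of 4.60 was itself within that range. With the mutant arrays below 4.70 raised to it, the mean of GILT was 85.6-fold lower in the mutant. This is a least value only with respect to the bacterial range, and it leaves out the spread between arrays.

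DELTA-VPE read 9.76, 10.17 and 7.64 in the wild type and 4.94, 4.69 and 5.58 in the mutant. Its genotypes did not overlap, and only mutant array 2 fell within the bacterial range. The difference was -4.12 ± 0.64, or 17.4-fold. CSLA01 read 8.17, 8.92 and 10.55 in the wild type and 5.07, 4.82 and 7.01 in the mutant. In both genotypes array 3 was the highest, and 1.16 log2 units separated wild-type array 1 from mutant array 3. The CSLA01 difference was -3.58 ± 0.76, or 12-fold. It had the largest SE among the 8 in the main limma fit, which did not pair arrays by number.

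The 3 pectin genes were close to one another in the size of the difference. The inhibitor gene AT4G15750 read 8.98, 9.56 and 7.17 in the wild type and 5.28, 5.11 and 5.76 in the mutant, a difference of -3.19 ± 0.58. The inhibitor gene AT1G56100 read 8.33, 9.18 and 6.92 against 5.27, 4.80 and 5.80, a difference of -2.85 ± 0.56. The esterase gene AT5G49180 read 8.13, 9.17 and 6.71 against 4.79, 4.98 and 5.18, a difference of -3.02 ± 0.56. In each of the 3, the genotypes were nearest on the arrays numbered 3, and no mutant array reached the bacterial range. As fold changes these were 9.12, 7.22 and 8.09. The lowest mutant readings of AT1G56100 and AT5G49180, 4.80 and 4.79, lay just above that range, and whether this limits their fold changes was not tested.

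AT1G66850, the lipid transfer protein gene, read 8.44, 9.10 and 8.38 in the wild type and 4.90, 5.22 and 6.89 in the mutant. Its wild-type arrays were the closest together of the 8 genes, and mutant array 3 stood apart from the other mutant arrays. The difference was -2.97 ± 0.51, or 7.85-fold. AT3G28270 read 9.24, 9.41 and 10.93 in the wild type and 5.99, 6.83 and 7.89 in the mutant, so array 3 was highest in both genotypes. Its difference was -2.96 ± 0.60, or 7.76-fold, and every mutant array stayed above the bacterial range.

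**Figure D1:**
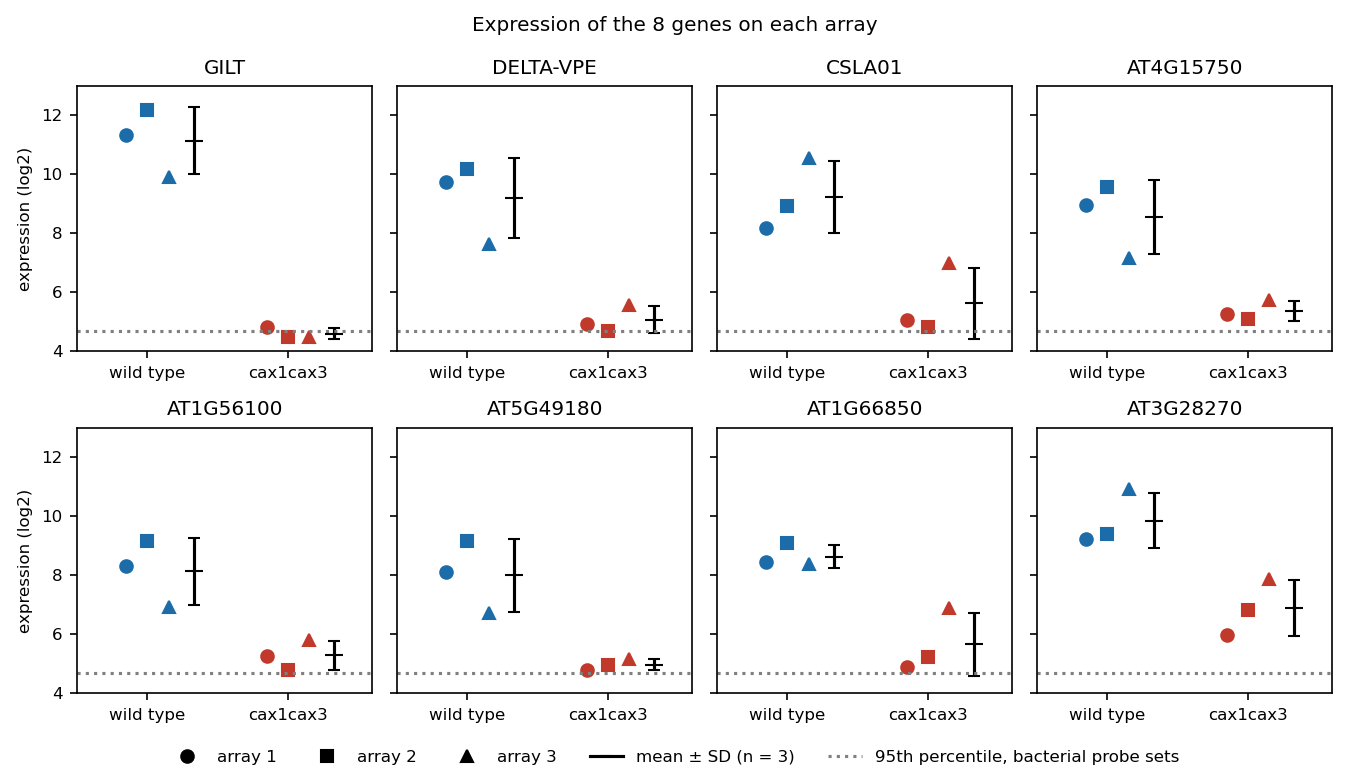
Expression of each of the 8 genes on the vertical axis (log2), with 1 point per array, marker shape for the array number, and the mean ± SD (n = 3) beside the points. The dotted line at 4.70 is the 95th percentile of the bacterial probe sets, which only GILT and DELTA-VPE reach in the mutant; array 3 is the lowest wild-type point in 6 panels and the highest in those of CSLA01 and AT3G28270.

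All 8 genes had every mutant array below every wild-type array, as did 13% of all 22746 probe sets tested, and the selection fixed this. They are 8 of the 10 named genes with the largest differences among those called lower, without overlap and with a wild-type mean above the median of all probe sets. Without 1 array, each of the 8 but GILT would have left those called in 4 or 5 of 6 fits. The member with the smallest difference was AT1G56100, at -2.85, which with the replicate block would not have been among those called. The next genes below it were RXF26 at -2.83, AT5G45880 at -2.76 and AT3G28750 at -2.72. Inside the same range, but not among the 8, were AT3G07820, a polygalacturonase gene, at -3.18 and ATA27, a tapetum beta-glucosidase gene, at -3.00. Because whole plants were sampled, fewer cells of a type and less RNA per cell cannot be told apart.

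The working label also calls the genes lost in the mutant, which describes GILT better than the others. GILT was within the bacterial range on 2 of 3 mutant arrays and DELTA-VPE on 1. The other 6 genes were above it on all mutant arrays, some of them only narrowly. The lowest mutant readings were 4.79 for AT5G49180, 4.80 for AT1G56100, 4.82 for CSLA01 and 4.90 for AT1G66850. Those of AT4G15750 and AT3G28270 were 5.11 and 5.99. Whether readings just above the bacterial range show remaining transcript was not tested.

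The 8 genes did not vary together across the wild-type arrays. They formed 2 patterns that were opposed on array 3, with 1 gene between them, which is a description from 3 arrays, a number too small for a correlation. GILT, DELTA-VPE, AT4G15750, AT1G56100 and AT5G49180 were highest on wild-type array 2, intermediate on array 1 and lowest on array 3. CSLA01 and AT3G28270 were highest on array 3 and lowest on array 1. In all 8 genes array 2 was above array 1, so the patterns differ in where array 3 lies. AT1G66850 had the order of the first 5 with a smaller spread, 0.72 log2 units from its lowest to its highest array.

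In the first 5 genes the spread over the wild-type arrays was 2.26 to 2.53 log2 units, which for DELTA-VPE is 5.79-fold between samples of the same genotype. CSLA01 spread over 2.38 and AT3G28270 over 1.7. The median spread of all probe sets was 0.25, and 0.229% of them spread more widely than DELTA-VPE. For AT1G66850, 8.26% did.

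Measured as deviations from each gene's own wild-type mean, the patterns of the 5 genes were nearly superimposed. GILT deviated by 0.19, 1.03 and -1.23 on arrays 1, 2 and 3. AT1G56100 had the same deviations to 2 decimals. AT5G49180 deviated by 0.13, 1.16 and -1.29, AT4G15750 by 0.42, 0.99 and -1.40, and DELTA-VPE by 0.57, 0.98 and -1.55. CSLA01, in contrast, deviated by -1.04, -0.29 and 1.34, and AT3G28270 by -0.62, -0.45 and 1.07.

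**Figure D2:**
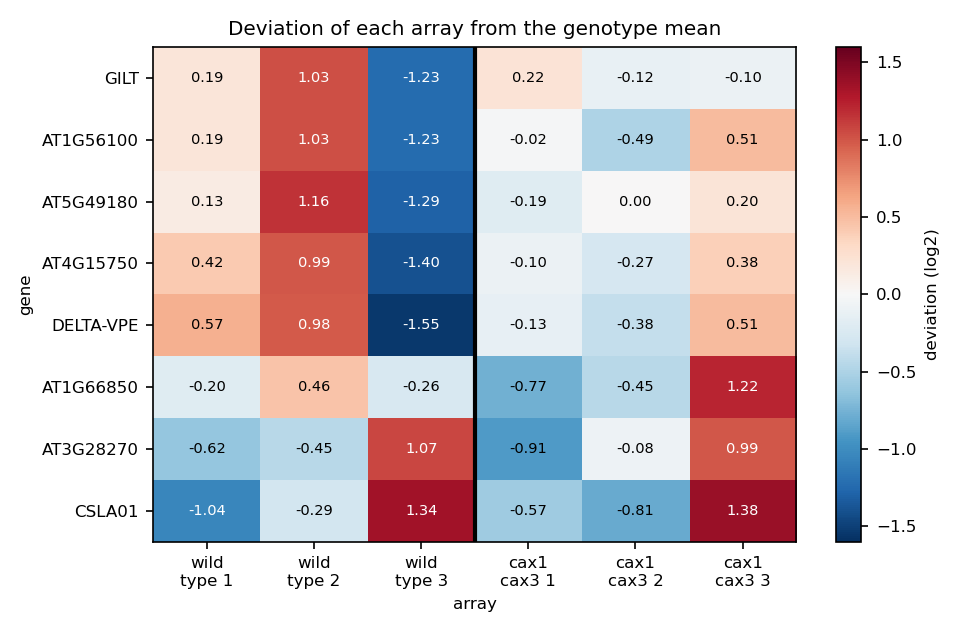
Deviation of each array from the mean of its genotype (log2, colour and printed number), with the 8 genes as rows and the 6 arrays as columns. Wild-type array 3 is negative for 6 genes and positive for AT3G28270 (1.07) and CSLA01 (1.34), while mutant array 3 is positive for every gene but GILT.

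The root mean square difference of these deviations put a size on the likeness of the 28 pairs. Within the 5 genes the 10 pairs differed by 0.00102 (GILT with AT1G56100) to 0.317 log2 units (DELTA-VPE with AT5G49180). CSLA01 and AT3G28270 differed by 0.301. Between the 5 genes and these 2, the differences were 1.65 to 2.05. AT1G66850 differed from the other 7 by 0.688 to 1.13. Differences between the patterns were thus several times wider than those within either, and the genes were sorted into the patterns after their values were seen, so no test was made.

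**Figure D3:**
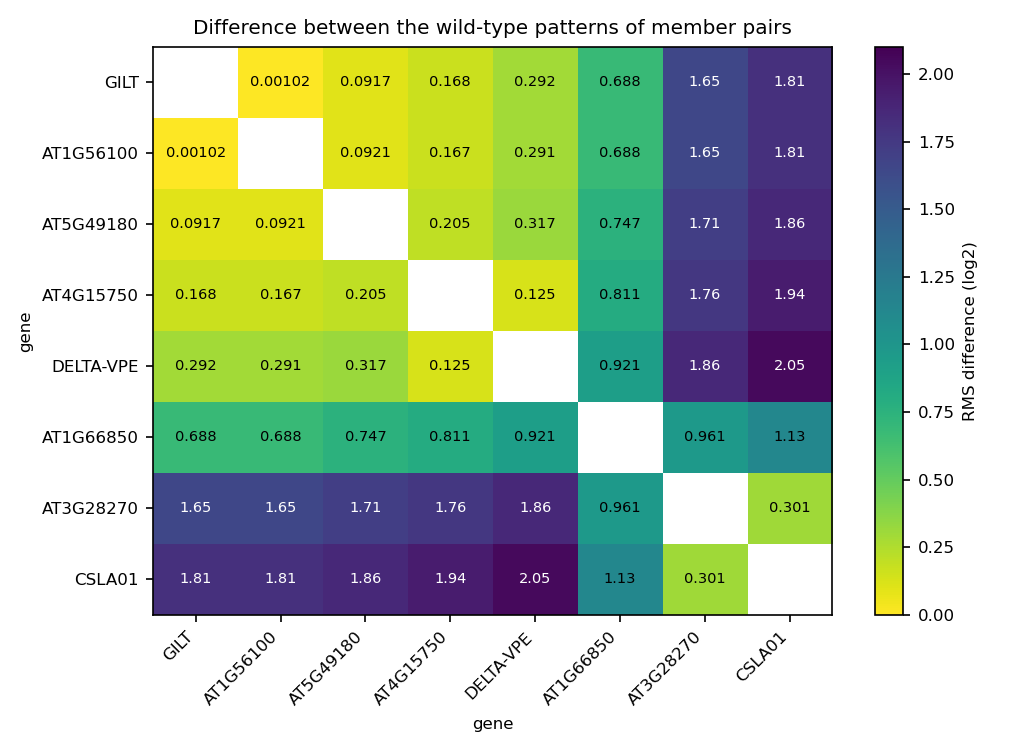
Root mean square difference (log2) between the wild-type deviations of each pair among the 8 genes, over 3 arrays, with small values in yellow. The first 5 genes form 1 block of differences up to 0.317, AT3G28270 and CSLA01 another at 0.301, and pairs across the blocks lie between 1.65 and 2.05.

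The order of the first pattern is not particular to these genes. The order array 2, 1, 3 from high to low was seen in 6 of the 8 genes, in 16.8% of all probe sets and in 24.6% of the 895 with a wild-type spread of at least 1 log2 unit. Of the 42 probe sets that were called lower in the mutant and spread that widely in the wild type, 13 had it, and 5 of those 13 are genes described here. Array 3 was the highest in 8 of the 42, CSLA01 and AT3G28270 among them. It was the lowest in 33.

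The mutant arrays gave another arrangement. Mutant array 3 was the highest for 7 of the 8 genes, against 41.5% of all probe sets and 42.1% of those called lower with a mutant spread of at least 1 log2 unit. For AT1G66850 it stood 1.22 above the mutant mean, for CSLA01 1.38 and for AT3G28270 0.99. For the 5 genes of the first pattern the mutant arrays differed by 0.34 to 1.00. CSLA01 and AT3G28270 were highest on array 3 in both genotypes. DELTA-VPE, AT4G15750, AT1G56100, AT5G49180 and AT1G66850 were lowest on array 3 in the wild type and highest on it in the mutant. For AT1G66850, wild-type arrays 3 and 1 were close, at 8.38 and 8.44.

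The genotype difference between arrays of the same number varied from number to number. For AT1G56100 it was -3.06, -4.38 and -1.11 in numbers 1, 2 and 3, and for DELTA-VPE -4.82, -5.48 and -2.06. For GILT it was -6.53, -7.71 and -5.43. In 6 of the 8 genes number 3 gave the smallest difference. These were the same 6 genes that were lowest on wild-type array 3, so this in part restates their wild-type order. CSLA01 kept -3.11, -4.10 and -3.54 and AT3G28270 -3.24, -2.58 and -3.04. With both arrays numbered 3 left out, an alternative added after the data were seen, the difference of DELTA-VPE went from -4.12 to -5.15, and those of AT4G15750, AT1G56100 and AT5G49180 became -4.08, -3.72 and -3.76. Those of CSLA01 and AT3G28270 were -3.60 and -2.91.

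Other genes whose wild-type pattern was nearest to the median pattern of the 8 did not differ between genotypes by limma. The search covered 434 probe sets with 1 named gene and a wild-type spread of at least 1 log2 unit. The plastid-encoded genes rps4, accD and atpF, for a ribosomal protein, a fatty acid synthesis subunit and an ATP synthase subunit, were 3 of the 6 nearest, with root mean square differences of 0.09, 0.13 and 0.13. The others were AT3G53250 (0.11), AT5G10580 (0.13) and AT2G43610 (0.14), the last a chitinase-family gene. On the wild-type arrays accD read 8.68, 9.45 and 7.53, which is the order of GILT. On the mutant arrays it read 8.35, 8.98 and 9.23, and its genotype difference was 0.30 ± 0.48 (adjusted p = 0.809 by limma). AT2G43610 read 7.89, 8.87 and 6.85 in the wild type and 8.41, 8.22 and 6.08 in the mutant (adjusted p = 0.882). The part of such differences between wild-type samples in the pattern of the 5 genes was not tested.

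Over all 6 arrays, each profile centred on its own mean, the named genes nearest to the median profile of the 8 were AT3G07820, ATA27, AT4G12890, RXF26, AT3G28750 and AT3G01240. Their root mean square differences were 0.38, 0.47, 0.51, 0.54, 0.57 and 0.61, where the median over 13505 other probe sets with 1 named gene was 1.82. The members themselves ranged from 0.39 (AT4G15750) to 1.64 (GILT), whose difference is far larger than the median. AT3G07820 read 8.43, 8.11 and 7.19 in the wild type and 4.41, 4.39 and 5.41 in the mutant. RXF26, which encodes an esterase of the GDSL family, read 9.11, 9.53 and 9.18 and then 6.44, 5.94 and 6.94. This measure includes the genotype difference by which the 8 were chosen, so the list describes and supports nothing.

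**Figure D4:**
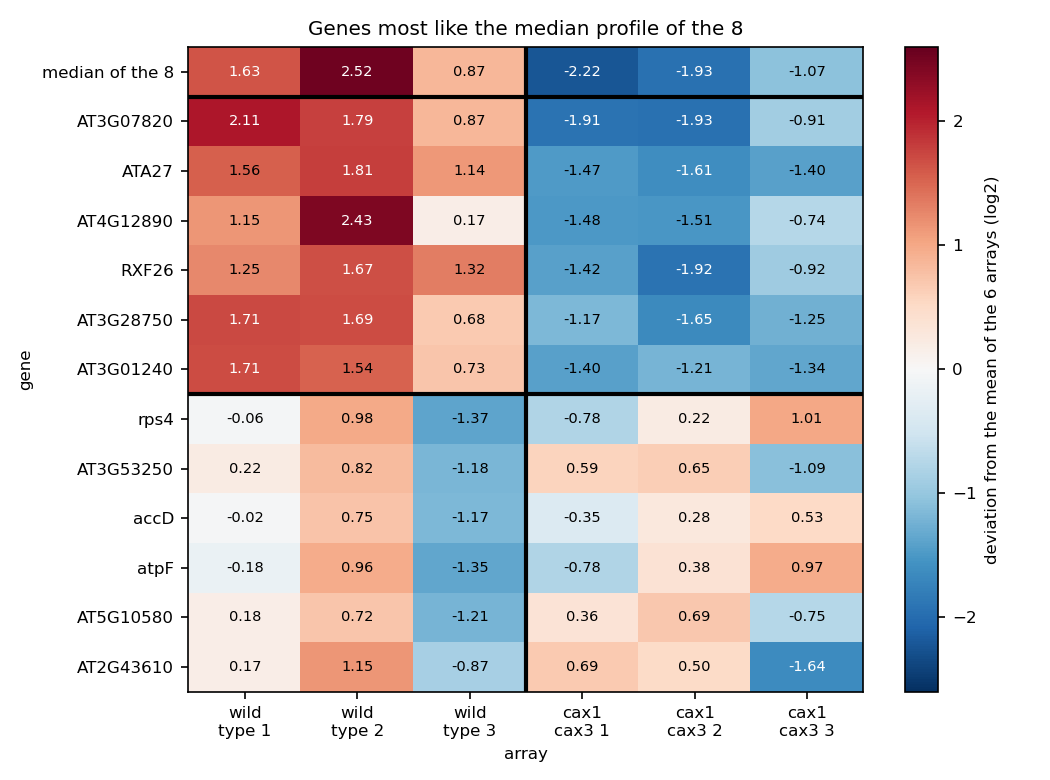
Deviation of each array from a gene's mean over the 6 arrays (log2) for the median profile of the 8 genes (top row), the 6 named genes nearest to it over all arrays, and the 6 nearest over the wild-type arrays alone (bottom). The middle block is positive on every wild-type array and negative on every mutant array, while in the bottom block, among the mutant arrays, rps4, accD and atpF are highest on array 3 and AT3G53250, AT5G10580 and AT2G43610 lowest on it.

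The families of the 8 genes were examined for other members that differed between the genotypes. A gene was called when limma's adjusted p over all 22746 probe sets was under 0.05, which 3.28% of probe sets met as lower and 2.34% as higher in the mutant. Blocking on replicate number gave 5.15% and 4.63%. The median difference over all probe sets was 0.012.

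Among the thiol reductase genes, GILT had a measured relative near it in the gene order. AT4G12890, with 6 protein-coding genes between it and GILT in the RefSeq gene order (assembly TAIR10.1), read 7.20, 8.48 and 6.22 in the wild type and 4.57, 4.54 and 5.31 in the mutant. It has the wild-type order of GILT, and its mutant arrays lie lower without overlap, but it was not called (-2.49 ± 0.55, adjusted p = 0.0505 by limma, and 0.0576 with the replicate block). The third measured gene, AT1G07080, held 10.97 to 11.06 in the wild type and 10.72 to 10.87 in the mutant (-0.24, adjusted p = 0.219 by limma). Of the 6 family genes 3 were measured, and neither relative of GILT was called.

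All 4 vacuolar processing enzyme genes were measured, and none of the other 3 was called. BETA-VPE, a seed enzyme that matures storage proteins, differed by 0.72 (adjusted p = 0.173 by limma). GAMMA-VPE, of vegetative organs, differed by 0.03, with arrays from 12.19 to 12.72 over both genotypes. ALPHA-VPE, also of vegetative organs, differed by -0.08. CSLA03 was the 1 other measured gene of 9 in the CSLA family, and it differed by 0.26 (adjusted p = 0.555 by limma). Of the AT14A relatives, AT3G28280 lies next to AT3G28270 in the gene order and differed by 0.00, at 4.44 to 4.60 in the wild type. AT3G28310 and AT3G28320 differed by 0.22 and 0.08, and neither was called. The wild-type means of AT3G28280 and AT3G28310, 4.50 and 4.68, lay within the bacterial range, so these genes could show no fall. So the families of DELTA-VPE, CSLA01 and AT3G28270 held no other measured gene that passed the test.

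The pectin families were broader. Besides AT5G49180, 41 pectin methylesterase genes were measured, of which 5 were lower and none higher by limma, with a median of -0.07. With the replicate block 4 were lower. In 17 of the 41 both means lay within the bacterial range, so these could show no fall. PME61 (AT3G59010 in RefSeq) fell from 10.44 ± 0.29 to 8.74 ± 0.25 (SD, n = 3, adjusted p = 0.00774 by limma) and stayed called without any 1 array. AT5G07430 fell from 6.70 ± 0.63 to 4.74 ± 0.10, with the wild-type order of GILT (adjusted p = 0.0162). ATPMEPCRD fell by 1.71 (adjusted p = 0.0249), and AT3G49220 by 0.65 (adjusted p = 0.0112), both with wild-type array 3 the highest. The fifth, AT3G05610, was named after its values were seen; it fell by 1.20 (adjusted p = 0.0414), and the block moved its adjusted p to 0.0541. Without 1 array these last 4 lost their calls in 2 to 4 of 6 fits.

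Besides AT4G15750 and AT1G56100, 27 genes of the family of pectin methylesterase and invertase inhibitors were measured, of which 8 fell and 1 rose by limma, with a median of -0.32. With the replicate block 9 were lower and 1 higher. In 6 of the 27 both means lay within the bacterial range, so these could show no fall. AT5G38610 fell by 0.70 ± 0.09 (adjusted p = 0.0107), and its wild-type arrays were tightly grouped, from 7.13 to 7.24. AT4G02250 fell from 6.90 ± 0.67 to 4.69 ± 0.12, a mean within the bacterial range (adjusted p = 0.0136). It shares the wild-type order of GILT, with 7.24, 7.34 and 6.13. AT2G47050 fell by 2.44 ± 0.38 (adjusted p = 0.0181), and AT1G70720 by 0.86 ± 0.14 (adjusted p = 0.0214). AT3G47380 was the gene that rose, from 6.61 ± 0.21 to 8.53 ± 0.68 (adjusted p = 0.0233), and was named after its values were seen. Each of these 5 genes lost its call in 2 to 5 of 6 fits without 1 array, with adjusted p values up to 0.0522 for AT5G38610 and 0.0967 for AT3G47380.

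The 9 other measured lipid transfer protein genes did not pass the test. All 9 had negative differences, with a median of -1.07 and none called without the block, and 1 was called with it. Among them are the neighbours AT5G38160, AT5G38170, AT5G38180 and AT5G38195, which may share probes. The median is the value of AT5G38195, and the genes outside this group differed by -0.11 to -1.32. The largest difference was that of AT5G38170, which read 6.89, 8.84 and 5.68 in the wild type and 4.62, 4.90 and 4.84 in the mutant (-2.35, adjusted p = 0.125 by limma). Its wild-type arrays spread over more than the difference itself.

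**Figure D5:**
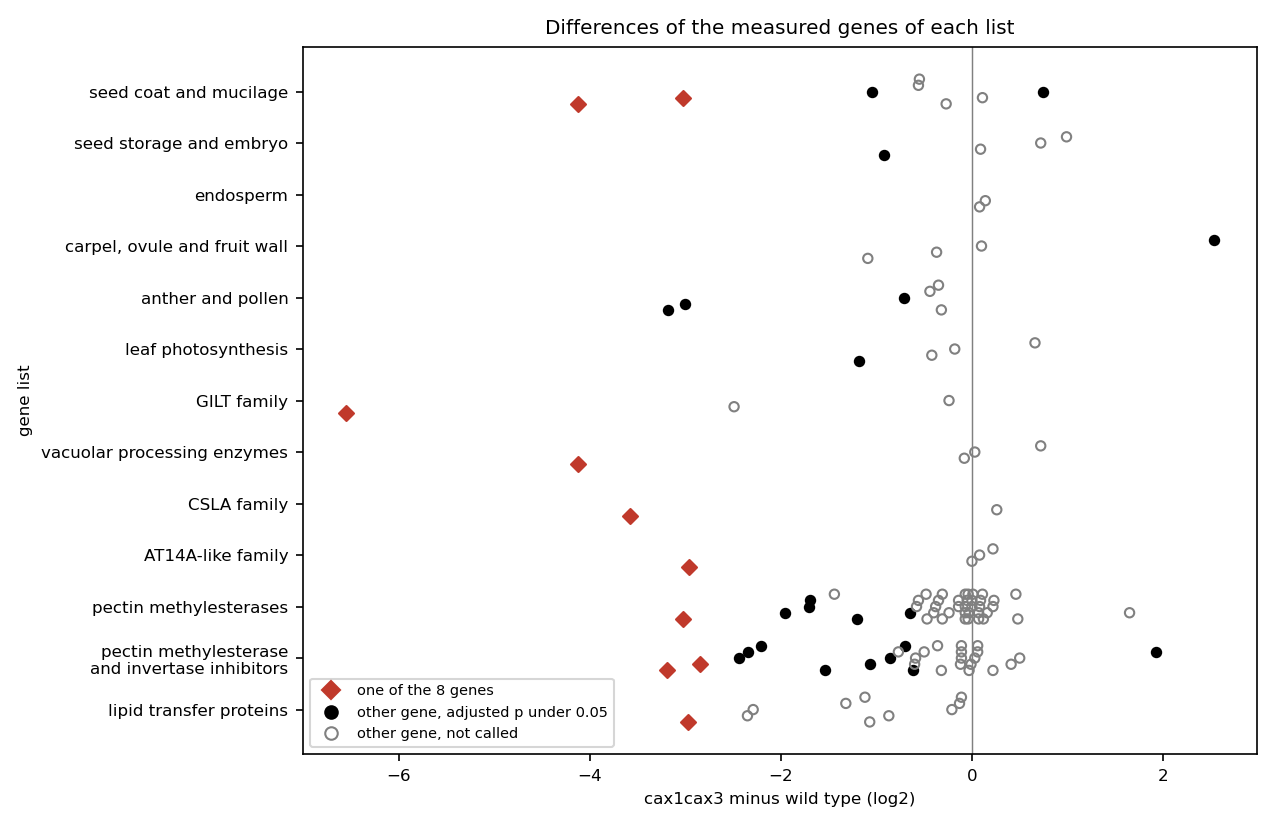
Difference between cax1cax3 and wild type (log2, horizontal axis) for each measured gene of the families and marker lists, with the 8 genes as red diamonds, other called genes as filled circles and the rest as open circles. Apart from the 8 genes, the filled circles left of 0 lie mostly among the pectin inhibitors (8), pectin methylesterases (5) and anther and pollen markers (3), and those right of 0 are ADPG1, AT3G47380 and AT3G10320.

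The label of seed and silique genes was checked against marker lists, of which the annotation names few genes. Of 31 seed coat and mucilage genes 8 were measured, DELTA-VPE and AT5G49180 among them. Of the other 6, BAN fell and AT3G10320 rose. BAN, of tannin synthesis in the seed coat, read 6.46, 6.22 and 5.64 in the wild type and 4.92, 5.17 and 5.10 in the mutant (-1.05, adjusted p = 0.0401 by limma). AT3G10320, a mucilage xylan gene, went from 4.64 ± 0.11 to 5.38 ± 0.23 (adjusted p = 0.0332), and its wild-type mean lay within the bacterial range. Without 1 array both lost their calls in 5 of 6 fits. The summed level of the 6 genes lay at 11.15 to 11.36 on wild-type arrays and 10.83 to 11.00 on mutant arrays. Most of it came from ARA12, named after its values were seen, at 10.28 to 10.70 over both genotypes (adjusted p = 0.225 by limma).

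Of 24 seed storage and embryo genes 4 were measured. OLEO3, for an oil body protein, fell from 6.82 ± 0.15 to 5.90 ± 0.32 (adjusted p = 0.0340 by limma), and lost its call in 4 of 6 fits without 1 array. Named after their values were seen, PAP85, for a vicilin-like storage protein, had a wild-type mean within the bacterial range and differed by 0.99 (adjusted p = 0.144), and M17 had both means within it. The summed level of the 4 lay at 7.53 to 7.84 on wild-type arrays and 7.59 to 7.85 on mutant arrays. Both measured endosperm genes, AGL62 and IKU2, had both means within the bacterial range.

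Of 15 carpel, ovule and fruit wall genes 4 were measured, none fell and ADPG1 rose. ADPG1, a polygalacturonase gene of pod opening and organ shedding, read 4.36, 4.45 and 4.14 in the wild type and 7.10, 7.78 and 5.67 in the mutant (adjusted p = 0.0347 by limma), and lost its call in 5 of 6 fits without 1 array. ALC, a fruit valve margin regulator also named after its values were seen, differed by -1.09 (adjusted p = 0.0607) with the order 2, 1, 3 in the wild type. The summed level was 7.29 to 8.01 in the wild type and 7.54 to 8.53 in the mutant. None of 7 floral organ identity genes was measured under a name.

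Of all 16 measured seed and fruit markers other than the 8 genes, 2 fell and 2 rose. Over all probe sets 3.28% were called lower and 2.34% higher. The label goes beyond what these markers show. Among the 16, AT3G50990, M17, AGL62 and IKU2 had both means within the bacterial range and could show no fall. The wild-type means of ADPG1 (4.32), PAP85 (4.33) and AT3G10320 (4.64) also lay within it, so these genes could show no fall either. ADPG1 and AT3G10320 are the 2 that rose. Textbook knowledge places DELTA-VPE and AT5G49180 in the seed coat, and it gives AT3G28270 no such place. The 8 are best called by their names.

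Of 20 anther and pollen markers 6 were measured. Of these, 3 fell, where 3.28% of all probe sets were called lower. None rose, and the other 3 had negative differences that did not pass the test. Those that fell were ATA27 from 7.76 ± 0.34 to 4.77 ± 0.11 (adjusted p = 0.00209 by limma), AT3G07820 from 7.91 ± 0.64 to 4.73 ± 0.58 (adjusted p = 0.00974) and AT5G07230, by 0.71. With the replicate block 4 fell. The summed level of the 6 lay at 8.88 to 9.50 on wild-type arrays and 7.30 to 7.57 on mutant arrays. On the wild-type arrays ATA27 read 7.82, 8.07 and 7.40, a spread smaller than that of the 5 genes of the first pattern. Of 4 measured leaf photosynthesis genes LHCB4.3 fell by 1.18, and the summed level was 14.86 to 14.93 against 14.73 to 14.96. The part of flower, pollen or leaf share in the differences of the 8 genes was not tested.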

How the data were processed

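Biotin-labelled cRNA from 6 samples, 3 per genotype, was measured on 1 Affymetrix array each. The authors deposited log2 values, 1 for each probe set. The submitters' processing notes name GCOS 1.1.2 and RMA, with settings not given in the sources used here. Values ran from 3.35 to 14.5, as log2 expression does, and no further transformation was made. Of 22810 probe sets, 64 controls were left out and 22746 tested. The platform annotation names 1 gene for 13513, and symbols were updated through RefSeq (TAIR10.1). No genome coordinates or sequences were used here.

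Genotypes were compared with limma 3.58.1 (lmFit, eBayes, R 4.3.3) over all arrays, p-values being adjusted by Benjamini-Hochberg across every tested probe set, and the code was tested on simulated data. Members and lists were chosen with earlier results of these data known, so the 8 genes carry no test. For a listed gene with several probe sets, the one of highest mean was taken. A summed level is the log2 of summed linear values. Named list genes are up to 4 called ones by adjusted p, or the one with the largest difference; the other named genes are the 3 next largest falls and the 6 nearest profiles over all arrays and over the wild type, and exceptions are stated. The 3 pectin and lipid transfer families were listed by locus after the design was fixed, because the gene tables held no gene descriptions for the planned word search. The planned promoter motif search was not run.

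Deviations from the genotype means correlated between arrays of equal number (r = 0.43, 0.29 and 0.47 across probe sets for numbers 1, 2 and 3). The numbers may thus pair the arrays, but the main fit did not use this pairing. Its SEs and adjusted p-values are unpaired, and the replicate block, given as an alternative, is the fit that pairs the arrays. Nothing says that samples came from separate plants, so p-values reflect only sample-to-sample spread, possibly technical. The number of arrays limits the precision.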

Additional observations from a re-analysis of the deposited data

How the results depend on the processing

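Since the 8 genes were selected without overlap between genotypes, leaving out arrays could not turn a sign, and the replicate block leaves the size of a difference as it is. Leaving out 1 of the 3 arrays of a genotype cannot move a difference by 1 SD between replicates, pooled over both genotypes. Only quantile normalization, array weights and the fit without both arrays numbered 3 (added after seeing the data) could do so. Under these, 1 difference moved by more than that SD, that of DELTA-VPE without both arrays numbered 3, at -5.15. Its other values without arrays ran up to -3.63. Counts moved more. The probe sets called higher and lower, 532 and 747 with all arrays, were 1053 and 1171 with the replicate block and 1286 and 1560 with array weights, and ranged from 108 to 973 and from 147 to 1023 when arrays were left out, lowest without mutant array 2. Among 111 other listed genes, 3 were called higher and 19 lower. With array weights these were 6 and 33, and with arrays left out 0 to 5 and 2 to 30. Of these 22 genes, 15, 19 and 9 lost their call without wild-type array 1, 2 or 3, and 11, 20 and 2 without mutant array 1, 2 or 3. Only ATA27 and PME61 kept it in each of these 6 fits. The replicate block ended 1 of the 22 calls, that of AT3G05610. A fit with fewer arrays has fewer degrees of freedom by construction, but the counts depended on which array was left out. Over all probe sets the calls rose to 797 higher and 947 lower without mutant array 3, and to 973 and 1023 without both arrays numbered 3. Quantile normalization ended no listed call.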

Other observations

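The lipid transfer protein genes AT5G38160, AT5G38170, AT5G38180 and AT5G38195 are neighbours in the RefSeq gene order, with at most 1 protein-coding gene between one and the next, and were singled out after their values were seen. All 4 were highest on wild-type array 2. AT5G38180 read 4.79, 7.04 and 4.53 in the wild type and 4.27 to 4.44 in the mutant, so 1 wild-type array carries its difference of -1.12. AT5G38160 read 6.36, 8.54 and 5.52 against 4.28, 4.44 and 4.84. None of the 4 was called by limma (adjusted p from 0.125 to 0.395). Near-identical neighbours can share probes, so these may not be 4 separate measurements.

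Of the 19 listed genes called lower besides the 8, wild-type array 3 was the lowest in 9, and 5 had the order 2, 1, 3.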
